A study of Mus musculus with 21 samples.

Results

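Lrrc4b (ENSMUSG00000047085) was followed in the hearts of male C57BL/6NJ mice, as 1 gene of the 15216 that passed a filter on low counts. It was chosen by its levels in these same libraries, which stepped down over the 4 groups. Its levels and fold changes are therefore given as a description, without a test. Each library was the heart RNA of 1 of 21 mice, which were 8 to 10 weeks old when assigned to chow or to a high-fat diet (60% of its energy from fat) for 10 weeks. They received by retro-orbital injection either an adeno-associated virus carrying renin, called Renin in the sample labels, or the control. The sample labels call that control novirus and the series text calls it a null vector, so both names stand for the same mice. Hearts were taken 6 weeks after injection. Crossing diet and virus made 4 groups, named here by their title labels: chow novirus (4 hearts), chow Renin (6), HFD novirus (6) and HFD Renin (5), where HFD is the high-fat diet. The labels do not give the promoter or target cell of the virus.

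Lrrc4b encodes netrin-G ligand 3 (NGL-3), a membrane protein with leucine-rich repeats and an immunoglobulin domain on the outside of the cell. In the brain it sits on the receiving side of excitatory synapses, binds receptor tyrosine phosphatases of the LAR family on the sending side, and holds the scaffold PSD-95 by its tail. Its relatives Lrrc4 (NGL-2) and Lrrc4c (NGL-1) bind netrin-G proteins. Renin starts the cascade that forms angiotensin II, which raises blood pressure, and the study combined it with diet-induced obesity to model a heart failure in which the ejection fraction is kept.

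The gene lies on the plus strand of chromosome 7 at 44429018 to 44463351 (GRCm38), and no annotated gene overlapped it. The annotation gives it 3 transcripts. Lrrc4b-201 spans 44442485 to 44463351 in 3 exons with a spliced length of 2728 bases. Lrrc4b-202 starts farther upstream, at 44429018, and Lrrc4b-203 starts within the gene, at 44442737. Lrrc4b-201 held 98.7% of the gene's estimated reads and had reads in 21 of 21 libraries, against 8 libraries for Lrrc4b-202 and 3 for Lrrc4b-203. The 250 bases in front of the RefSeq start site, which lies at 44442487 beside the start of that dominant transcript, are shown as the stretch in front of the annotated start of that transcript, to which nearly all of the gene's reads were assigned. No start site was measured. They come from the RefSeq table (GRCm38.p6, chr7:44442237-44442486, plus strand, read 5′ to 3′), and the 6 CG dinucleotides are in capitals.
Lrrc4b upstream: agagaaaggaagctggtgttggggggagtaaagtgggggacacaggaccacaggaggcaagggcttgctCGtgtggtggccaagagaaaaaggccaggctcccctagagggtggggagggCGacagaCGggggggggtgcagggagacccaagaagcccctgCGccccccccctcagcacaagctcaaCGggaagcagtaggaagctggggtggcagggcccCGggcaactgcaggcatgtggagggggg
This stretch was 66.0% G or C. Over the whole tabulated window, from 250 bases before to 50 bases after the start, the share was 66.3%, above 84.4% of the 32851 promoter windows of that length, whose median was 52.7%. Searched on both strands, the window held no match to the E-box CACGTG (found in 7.15% of all windows), the D-box TTANGTAA (2.32%), the nuclear receptor site AGGTCA (16.3%), the cyclic AMP response element TGACGTCA (1.79%) or the GC box GGGCGG (35.7%). These are matches of letters only, and several of these motifs are short.

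Library totals ran from 18571060 to 29014362 estimated reads. The 4 chow novirus libraries were lowest, at no more than 21223263 reads, and the other 17 had at least 22606543. All 8 cardiomyocyte markers were detected in every library, with a summed level of 48263 to 68398 CPM, the unit that scales reads to a fixed library total. The chow Renin group stood apart in markers of central neurons, oligodendrocytes and Schwann cells. The summed level of 8 such markers, among them Snap25, Syt1 and Camk2a, was 294 to 474 CPM in its 6 libraries and 107 to 177 CPM in the other groups. The 6 oligodendrocyte markers moved the same way, at 98.7 to 165 CPM in chow Renin and 24.7 to 48.9 CPM elsewhere, and so did the 7 Schwann cell markers, at 42.4 to 69.4 CPM against 13.2 to 31.2 CPM. These values bear on each comparison with the chow Renin group, and since they cover the whole group, no library of it can be set aside.

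Lrrc4b was highest in chow novirus hearts and lowest in HFD Renin hearts. Its levels are given as CPM scaled by the trimmed mean of M values (TMM). The 4 chow novirus libraries stood at 21.4, 22.7, 12.3 and 26.5 CPM. The 6 chow Renin libraries ran from 12.3 to 16.5 CPM with a median of 13.7, and the 6 HFD novirus libraries from 5.39 to 17.5 CPM with a median of 8.49. The 5 HFD Renin libraries stood at 4.76, 3.86, 6.25, 4.60 and 4.01 CPM. Every HFD Renin heart lay below every heart on chow, with or without renin. Neighbouring groups in the order were kept from separating by single hearts: chow novirus replicate 3 (12.3 CPM) lay marginally below all 6 chow Renin hearts, HFD novirus replicate 4 (17.5 CPM) lay above all 6 chow Renin hearts, and HFD novirus replicate 6 (5.39 CPM) lay below the highest HFD Renin heart.

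**Figure D1:**
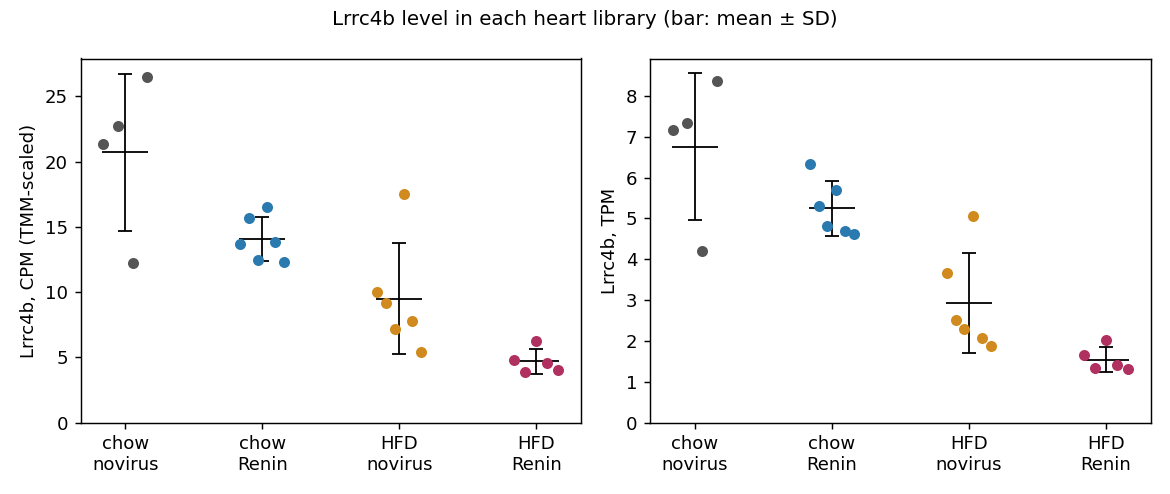
Lrrc4b in each of the 21 heart libraries, as TMM-scaled CPM (left axis panel) and as TPM (right panel), which also divides by transcript length, with points for libraries and bars for the group mean ± SD. The means step down from 20.7 to 4.70 CPM, the 5 HFD Renin points lie below all 10 points on chow, and 1 HFD novirus heart lies at 17.5 CPM.

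Group means were 20.7 CPM ± 6.05 (SD, n = 4) in chow novirus, 14.1 ± 1.68 (n = 6) in chow Renin, 9.51 ± 4.22 (n = 6) in HFD novirus and 4.70 ± 0.945 (n = 5) in HFD Renin. The spread relative to the mean was widest in HFD novirus, with a coefficient of variation of 44.4%, and narrowest in chow Renin, at 12.0%. On the TPM scale, which divides by transcript length, the means kept the order at 6.76 ± 1.79, 5.25 ± 0.672, 2.92 ± 1.23 and 1.55 ± 0.295. The signal in the authors' deposited gene matrix followed it too, with means of 8.86, 6.33, 4.15 and 1.99. The gene was of middling abundance, ranking 7554 of 15216 by mean CPM.

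Estimated reads per library ran from 100, in HFD Renin replicate 2, to 547, in chow novirus replicate 4. The 95% Wilson interval for the first was 3.03 to 4.48 CPM of the library total, and for the second 23.7 to 28.0. These intervals cover counting error only. The biological coefficient of variation fitted to Lrrc4b was 0.251, against 0.154 in common over all genes.

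In the edgeR fit of all 21 libraries, the log2 fold change of Lrrc4b was -0.56 (SE 0.24) for chow Renin against chow novirus and -1.12 (SE 0.24) for HFD novirus against chow novirus. With both treatments it was -2.14 (SE 0.26) against chow novirus, a mean 4.41-fold lower in CPM, and 18 of the 15216 genes had a lower value in that comparison. Within the high-fat diet, renin hearts differed from control hearts by -1.02 (SE 0.25), and among renin hearts the high-fat diet differed from chow by -1.58 (SE 0.24). The renin difference was thus larger on the high-fat diet than on chow by -0.46 (SE 0.34) on the log2 scale, a value of the size of its standard error. That interaction was -0.19 without HFD novirus replicate 4, -0.28 without chow novirus replicate 3 and -0.60 without chow novirus replicate 4. It was -0.63 (SE 0.29) with the replicate number as a block. The value for chow Renin against chow novirus was -0.32 on the TPM scale with a pseudocount of 0.1 and -0.24 (SE 0.32) with the clock score described below as a covariate. The clock score was 3.39 to 3.70 in chow novirus and 2.87 to 3.22 in chow Renin hearts, so it also separated these 2 groups. With the mean log2 CPM of the central neuron markers as a covariate, an alternative added after seeing the data, the value for chow Renin against chow novirus was -1.86 (SE 0.76). That for HFD Renin against chow Renin was -0.47 (SE 0.66), and the interaction turned to 0.93 (SE 0.84). That score was 4.42 to 5.12 in the chow Renin hearts and 2.66 to 3.48 in all others, so it and the group could hardly be told apart, and with it the number of genes called for chow Renin against chow novirus went from 2048 to 41. For HFD Renin against chow novirus, which leaves the chow Renin hearts out of the contrast, Lrrc4b was -2.33 (SE 0.27) with it. In the authors' deposited table, the column named HFD+virus gave Lrrc4b a log2 fold change of -2.04, with 4 of 19096 listed genes lower, and the group it was set against is not given in the sources used here.

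In whole-heart RNA, fewer cells of a type and less RNA per cell cannot be told apart. The summed cardiomyocyte markers were 60394 to 68398 CPM in chow novirus, 56669 to 61947 in chow Renin, 56605 to 60684 in HFD novirus and 48263 to 55993 in HFD Renin, and this sum was lowest in HFD Renin. On the mean log2 CPM of the same 8 markers, which weights them equally, chow Renin was lowest at 12.02 ± 0.0214 (SD, n = 6), with HFD Renin at 12.06 ± 0.0382 (n = 5), HFD novirus at 12.18 ± 0.0835 (n = 6) and chow novirus at 12.25 ± 0.117 (n = 4), so the group with the lowest level depended on the measure. The 7 fibroblast markers summed to 934 to 1440 CPM in HFD Renin, with a median of 964, and to 533 to 1391 CPM in the other groups, with medians of 624.5 in chow novirus, 619 in chow Renin and 633 in HFD novirus. The 7 peripheral neuron markers were near 0 throughout, at 0.634 to 3.43 CPM in sum, and Th, Chrna3 and Slc18a3 were each at 0 in at least 1 library of every group. The 6 atrial markers had median sums of 271 CPM in chow novirus, 469 in chow Renin, 110 in HFD novirus and 695 in HFD Renin. Their libraries overlapped between groups, from 196 to 1197, 102 to 1023, 83.8 to 858 and 159 to 1062 CPM in the same order. The part of these shifts in the Lrrc4b levels was not tested.

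The order of the 4 group means was shared by 588 of the 15216 genes (3.86%), and its reverse by 682 (4.48%). All HFD Renin libraries lay below all chow novirus libraries for 771 genes (5.07%). Of the 588, 53 had a chow novirus mean at least 2 times the HFD Renin mean. The ratio was 4.41 for Lrrc4b and 4.78 for Cngb3, which was chosen after its values were seen and had a far lower level, with a chow novirus mean of 3.03 CPM.

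Lrrc4b was the main member of its family in every group. Levels of different genes are compared here in TPM. In chow novirus, Lrrc4b stood at 6.76 TPM, Lrrc4c at 0.465 ± 0.229 and Lrrc4 at 0.173 ± 0.0283. Lrrc4b made up 90.4% ± 6.40 of the summed TPM of the 3 genes in chow novirus, 76.9% ± 2.92 in chow Renin, 80.1% ± 8.79 in HFD novirus and 72.6% ± 5.78 in HFD Renin. The share was thus lower in chow Renin while both relatives were higher there, and lower in HFD Renin while Lrrc4b itself was lower.

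Lrrc4, the ligand of netrin-G2, rose in chow Renin hearts. Its libraries stood at 0.897, 0.611, 0.779 and 0.679 CPM in chow novirus, ran from 1.90 to 3.38 CPM in chow Renin (median 2.80) and from 0.679 to 2.30 CPM in HFD novirus (median 1.42), and from 0.826 to 1.19 CPM in the 5 HFD Renin libraries (median 1.01). Every chow Renin heart was above every chow novirus and HFD Renin heart. The log2 fold change of chow Renin against chow novirus was 1.87 (SE 0.28, edgeR adjusted p = 2.74e-05), and that of HFD Renin against chow Renin was -1.42 (SE 0.24, adjusted p = 0.000121).

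Lrrc4c, the ligand of netrin-G1, also rose in chow Renin hearts. It ran from 1.30 to 1.67 CPM in chow novirus, 2.71 to 4.19 in chow Renin, 1.09 to 1.94 in HFD novirus and 0.759 to 1.55 in HFD Renin. The chow Renin libraries were above all others. Its log2 fold change was 1.25 (SE 0.21, adjusted p = 8.32e-05) for chow Renin against chow novirus and -1.43 (SE 0.19, adjusted p = 3.55e-06) for HFD Renin against chow Renin. In that last comparison Lrrc4b stood at -1.58. Against chow novirus, HFD novirus hearts stood at 0.88 (SE 0.29, adjusted p = 0.262) for Lrrc4 and 0.12 (SE 0.21, adjusted p = 0.874) for Lrrc4c. Neither relative passed the test for HFD Renin against chow novirus, at 0.45 (SE 0.30, adjusted p = 0.384) for Lrrc4 and -0.19 (SE 0.22, adjusted p = 0.646) for Lrrc4c, the comparison in which Lrrc4b stood at -2.14. The renin difference was not the same on both diets for either relative, by edgeR's interaction term, at -2.30 (SE 0.38, adjusted p = 0.000133) for Lrrc4 and -1.55 (SE 0.28, adjusted p = 0.000411) for Lrrc4c, where 10.4% of all genes were called. With the central neuron score as a covariate these values were -1.66 (SE 0.89, adjusted p = 0.864) and 0.32 (SE 0.55, adjusted p = 0.979), where 0.197% of all genes were called. The rise of both relatives lay in the group with raised central neuron markers. With the central neuron score as a covariate, Lrrc4 stood at 1.27 (SE 0.81, adjusted p = 0.714) and Lrrc4c at -0.52 (SE 0.50, adjusted p = 0.849) for chow Renin against chow novirus, and neither passed the test, where 0.269% of all genes were called.

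**Figure D2:**
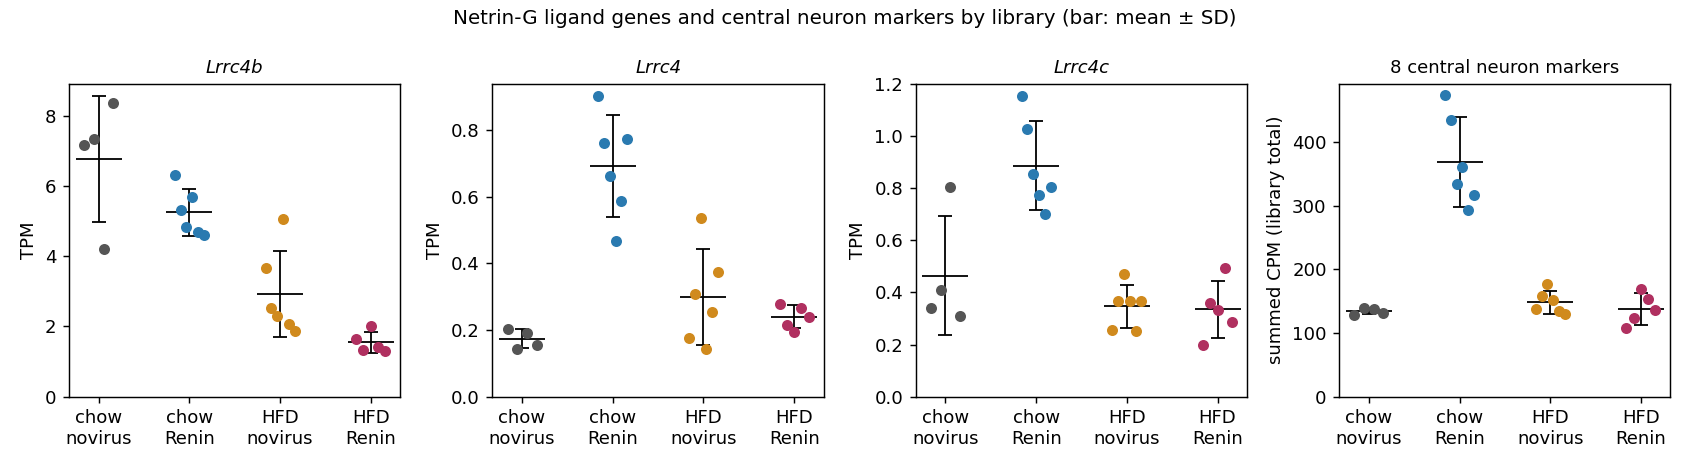
TPM of Lrrc4b, Lrrc4 and Lrrc4c and the summed CPM of 8 central neuron markers in each library, with points for libraries and bars for the group mean ± SD, each panel on its own axis from 0. Lrrc4, Lrrc4c and the neuron markers are highest in the 6 chow Renin hearts, where the marker sum is 294 to 474 CPM, and Lrrc4b does not share that peak.

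Among the 5 partners that NGL proteins bind, 2 rose in chow Renin, 1 rose in HFD Renin and the most abundant did not pass any test. Over all genes, 13.5% were called in either direction for chow Renin against chow novirus, 8.29% for HFD Renin against chow novirus and 11.1% against HFD novirus. Ptprs (PTP-sigma, a LAR-family phosphatase that NGL-3 binds) had group means of 80.3 to 84.6 CPM, and its log2 fold changes ran from -0.08 to -0.02 over the 5 comparisons (adjusted p at least 0.318). At 19.3 to 23.2 TPM it stood above the other partners in every group mean. Ptprd (PTP-delta) rose in chow Renin from a mean of 7.34 to 12.5 CPM (log2 0.77, SE 0.14, adjusted p = 0.00018) and was lower in HFD Renin than in chow Renin (-0.88, SE 0.12, adjusted p = 1.03e-05). Chow Renin was the group with raised neuron markers. With the central neuron score as a covariate the 2 values were -0.26 (adjusted p = 0.916) and -0.0053. Neither passed the test, where 0.269% and 0.276% of all genes were called. Ptprf (LAR) was lower in HFD Renin than in chow Renin (-0.53, SE 0.18, adjusted p = 0.0315), and this call was lost when any 1 of HFD Renin replicates 2, 3 and 5 or chow Renin replicates 1 and 2 was left out (adjusted p 0.062 to 0.0948).

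The netrin-G genes parted from each other. Ntng2, which encodes the anchored partner of NGL-2, averaged 9.62 CPM ± 1.72 (n = 4) in chow novirus and 9.09 ± 1.1 (n = 6) in HFD novirus, and 14.0 ± 2.55 (n = 5) in HFD Renin. The fibroblast marker sum was also higher in HFD Renin, at a median of 964 CPM against 619 to 633 in the other groups, and its part in the Ntng2 values was not tested. Ntng2 was higher in HFD Renin than in HFD novirus (log2 0.62, SE 0.12, adjusted p = 0.00289) and than in chow novirus (0.54, SE 0.14, adjusted p = 0.0192). Its groups still overlapped, from 9.87 to 16.5 CPM in HFD Renin against 7.39 to 11.3 CPM in chow novirus, and the second call was lost when any 1 of HFD Renin replicates 1 and 2 or chow novirus replicates 1 and 2 was left out (adjusted p 0.0541 to 0.0864). With the clock score as a covariate the values were 0.50 (adjusted p = 0.233) and 0.34 (adjusted p = 0.701), so both calls were lost, in fits that called 15 and 0 of all 15216 genes. Ntng1 was near the limit of counting in chow novirus, at 2 to 9 reads per library. It was higher in chow Renin (log2 1.67, SE 0.43, adjusted p = 0.00814, and log2 1.73 with adjusted p = 0.052 with the clock score as a covariate), with 1 chow Renin heart at 1.71 CPM and the other 5 between 0.447 and 0.831. These hearts had raised neuron markers. With the central neuron score as a covariate the value was -0.90 (adjusted p = 0.907), where 0.269% of all genes were called.

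**Figure D3:**
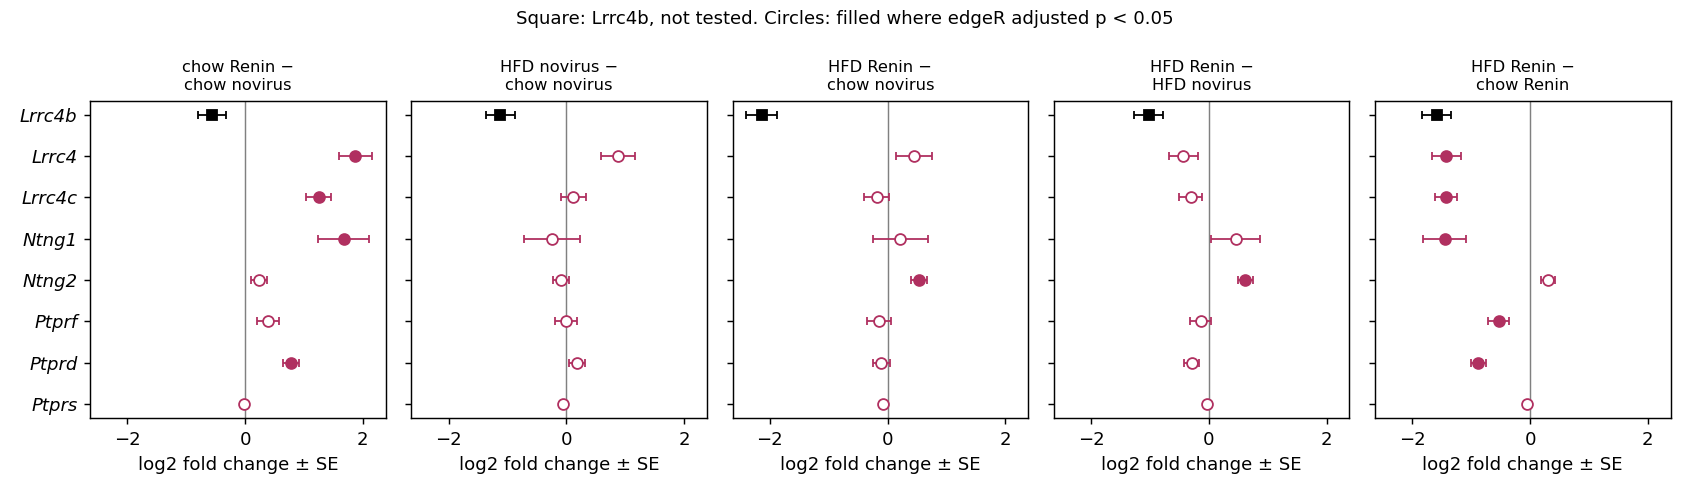
Log2 fold changes ± SE of Lrrc4b (black square, not tested), its 2 relatives and 5 binding partners in the 5 comparisons, with filled circles where the edgeR adjusted p is under 0.05. Lrrc4b lies left of 0 in all 5 panels, from -0.56 to -2.14, while Lrrc4, Lrrc4c, Ntng1 and Ptprd lie right of 0 for chow Renin against chow novirus and left of it for HFD Renin against chow Renin.

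Genes of the wider synaptic adhesion system were taken from 6 lists, of which 68 of 70 genes passed the filter on low counts. For chow Renin against chow novirus, 42 were higher and 1 lower, where 13.5% of all 15216 genes were called in either direction. The median log2 fold change of the listed genes was 1.16, against -0.03 over all genes. Between the HFD Renin and chow Renin hearts 3 were higher and 46 lower, where 22.6% of all genes were called. Both counts rest on the hearts with raised neuron markers, and with the central neuron score as a covariate both went to 0 calls, where the calls over all genes went from 2048 to 41 (0.269%) and from 3440 to 42 (0.276%). For HFD novirus against chow novirus 0 of the 68 were called by edgeR and 0 by DESeq2, with 14 at an unadjusted p under 0.05 (12 higher and 2 lower), where 0.0657% of all 15216 genes were called and 1668 were at an unadjusted p under 0.05.

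Both comparisons of HFD Renin hearts with novirus hearts leave the chow Renin group out. Of the 68 genes, 3 were higher and 3 lower in HFD Renin than in chow novirus, 8.82% of those tested against 8.29% of all genes. For HFD Renin against HFD novirus 3 were higher and 6 lower, 13.2% of those tested against 11.1% of all genes. Both shares were near the share over all genes. The first count went to 3 without any 1 of HFD Renin replicate 2 and chow novirus replicates 1 and 2. The second went to 5 without HFD Renin replicate 1 or 5 and to 15 without HFD Renin replicate 4. The median log2 fold changes were 0.11 and -0.18, against 0.01 and -0.01 over all genes.

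Of the 4 PSD-95 family scaffolds, 3 rose in chow Renin, the group with raised neuron markers, where 13.5% of all genes were called. Dlg4, which encodes PSD-95, went from 9.28 CPM ± 1.71 (n = 4) in chow novirus to 24.9 ± 3.76 (n = 6) in chow Renin (log2 1.42, SE 0.14, adjusted p = 4.20e-08). Dlg2 and Dlg3, which encode its relatives, rose by 1.62 and 0.63 in the same comparison, and Dlg1, another relative, stood at 0.0094 (SE 0.085, adjusted p = 0.965). In HFD Renin against chow novirus, and likewise against HFD novirus, 0 of the 4 scaffold genes were called by edgeR and 0 by DESeq2, with 1 at an unadjusted p under 0.05. Over all 15216 genes, 8.29% and 11.1% were called in these comparisons, with 3643 and 4026 at an unadjusted p under 0.05. The alpha liprins bind the inner part of LAR-family phosphatases. Of the 6 liprins listed, alpha and beta together, 2 were higher in HFD Renin than in chow novirus, where 8.29% of all genes were called. Ppfibp1 (liprin-beta 1) stood at 51.6 CPM ± 4.31 (n = 4) in chow novirus and 85.2 ± 19.7 (n = 5) in HFD Renin (log2 0.72, SE 0.13, adjusted p = 0.00255, and log2 0.36 with adjusted p = 0.633 with the clock score as a covariate), and Ppfia2 (liprin-alpha 2) rose by 0.88 (adjusted p = 0.0249) from a low level of 0.710 CPM. These HFD Renin hearts had the higher fibroblast marker sum given above, whose part in the liprin values was not tested. The Ppfia2 call was lost without any 1 of HFD Renin replicate 2 and chow novirus replicates 1 and 2 (adjusted p 0.0526 to 0.0919), with the central neuron score (log2 0.77, adjusted p = 0.0516) and with the clock score (log2 1.28, adjusted p = 0.339).

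Other synaptic genes with leucine-rich repeats held 18 higher and 1 lower gene of 30 tested in chow Renin against chow novirus, where 13.5% of all genes were called and the chow Renin hearts had raised neuron markers. Slitrk3, Lrrtm4 and Lrrtm1, which encode adhesion proteins of inhibitory and excitatory synapses, rose by 2.89, 2.88 and 2.48 there. In chow novirus each had at most 7 reads in any library. Lingo3, named after its value was seen, was the 1 gene of that list that fell, by 0.62 (adjusted p = 0.0253). That call was lost in 8 of the alternative fits, among them those without any 1 of 6 libraries (adjusted p up to 0.0995). It was also the only one of the 30 called in HFD Renin against chow novirus, at -0.92 (SE 0.19, adjusted p = 0.00532), a call that held without each library in turn and was lost with the clock score as a covariate (-0.58, adjusted p = 0.593). Of the other synaptic organizers, 2 of 21 were lower and 0 higher in HFD Renin than in chow novirus, a share near the 8.29% of all genes called, both named after their values were seen. Cadm4, an adhesion protein of glia and neurons, stood at -0.61 (adjusted p = 0.0169, and 0.0863 without chow novirus replicate 4), and at -0.38 (adjusted p = 0.693) with the clock score as a covariate. Clstn1, a calsyntenin, stood at -0.30 (adjusted p = 0.0346), a call lost without any 1 of 7 of the 9 libraries compared (adjusted p 0.0503 to 0.0994) and with the clock score (-0.10, adjusted p = 0.88).

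Some genes of the circadian clock differed between HFD Renin and chow novirus hearts, a comparison in which 8.29% of all genes were called. For chow Renin against chow novirus, 4 of the 15 clock genes were called (26.7%, 2 higher and 2 lower), where 13.5% of all genes were called. That count ran from 1 to 5 with single libraries left out. HFD Renin differed from HFD novirus and from chow Renin in 3 of 15 each (20.0%), where 11.1% and 22.6% of all genes were called. Of 10 clock genes listed here as day genes, 4 were lower in HFD Renin than in chow novirus, namely Dbp, Tef, Per1 and Ciart. Of 5 listed as night genes, Arntl was higher. These are names of lists, and the hour at which each gene peaks in these hearts was not measured. The Tef call (-0.29, adjusted p = 0.025) was lost without any 1 of 6 libraries (adjusted p 0.0551 to 0.0796), and the Per1 call (-0.74, adjusted p = 0.0262) without any 1 of 5 libraries (0.0502 to 0.11) and with the replicate block (0.0651). The count of 5 called clock genes went to 2 or 3 without any 1 of HFD Renin replicates 1, 2 and 5 and chow novirus replicates 1, 2 and 4. Over all libraries left out in turn it ran from 2 to 7, and DESeq2 called 7. Ciart, a repressor in the clock, averaged 22.3 CPM ± 5.30 (n = 4), 15.4 ± 2.64 (n = 6), 15.0 ± 2.89 (n = 6) and 11.1 ± 2.13 (n = 5) in chow novirus, chow Renin, HFD novirus and HFD Renin (HFD Renin against chow novirus log2 -1.01, SE 0.17, adjusted p = 0.00152). Dbp, an output gene of the clock, stood at 143 CPM ± 11.4 in chow novirus and 99.2 ± 23.4 in HFD Renin (-0.53, SE 0.14, adjusted p = 0.0195, and 0.0518 to 0.0726 without HFD Renin replicate 2 or 5 or chow novirus replicate 4). Arntl, the core activator, stood at 1.83 CPM ± 0.233 and 4.15 ± 1.98 (1.17, SE 0.23, adjusted p = 0.00281), with 1 HFD Renin heart at 7.63 CPM. The clock score, the mean log2 CPM of the day genes minus that of the night genes, was 3.55, 3.05, 3.30 and 2.87 in the same order of groups. For HFD novirus against chow novirus, where 0.0657% of all genes were called, 0 of the 15 clock genes were called by edgeR and 0 by DESeq2, with 2 at an unadjusted p under 0.05. With it as a covariate the Lrrc4b value for HFD Renin against chow novirus was -1.72 (SE 0.40) in place of -2.14, and 0 of the 15216 genes were called by edgeR in that comparison, with 1210 at an unadjusted p under 0.05, against 1262 called without the covariate. Between HFD Renin and HFD novirus 15 genes were called with it, against 1696 without. The hour at which hearts were taken is not given in the sources used here.

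Within groups, no measured property of a library was shown to move with Lrrc4b. Deviations from the group means over the 21 libraries were correlated with 6 measures, tested by permuting libraries within groups. The cardiomyocyte score, the mean log2 CPM of 8 markers, had the highest value, at Pearson r = 0.57 (permutation p = 0.0556, adjusted p = 0.171) and Spearman rho = 0.58 (p = 0.0229, adjusted p = 0.137), and r was 0.58 without the 2 libraries farthest from the median of that score. It passed the threshold when HFD novirus replicate 5 was left out (r = 0.71, adjusted p = 0.0426). The central neuron score gave r = 0.40 (adjusted p = 0.171) and rho = 0.38 (adjusted p = 0.283), and r was 0.45 without the 2 farthest. The clock score gave r = 0.28 and rho = 0.29 (adjusted p = 0.215 and 0.345; r = 0.43 without the 2 farthest), and the library total 0.32 and 0.23 (0.215 and 0.403; r = 0.27). The mitochondrial read share gave 0.15 and 0.18 (0.579 and 0.482; r = 0.21). Acta1, a skeletal actin that rises in loaded hearts, gave r = -0.10 and rho = -0.28 (0.579 and 0.345), and r was -0.60 without the 2 farthest libraries, so that value depended on those hearts.

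The genes most like Lrrc4b over the 21 libraries were Bckdhb, Kyat3, Ppat, Plxnb1 and Acadsb. Likeness was Pearson r of log2 CPM among 13156 genes of at least 1 CPM on average, and it carries no test, because all genes share the libraries, their depth and the group means that chose Lrrc4b. Bckdhb, a subunit of the enzyme complex that breaks down branched-chain keto acids, had r = 0.92 and group means of 56.3, 47.9, 44.4 and 30.9 CPM from chow novirus to HFD Renin. Kyat3, a kynurenine aminotransferase, had r = 0.92 and means of 30.1, 24.0, 22.1 and 15.2 CPM. Ppat, the first committed enzyme of purine synthesis, had r = 0.91, Plxnb1, a semaphorin receptor, 0.89, and Acadsb, an acyl-CoA dehydrogenase of isoleucine breakdown, 0.88. All 5 shared its order of group means, over a narrower range than the 4.41-fold span of Lrrc4b.

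The genes most opposed to Lrrc4b were Deptor, an inhibitor of the kinase mTOR (r = -0.89), Bambi, a decoy receptor for TGF-beta ligands (-0.89), Akap2, an anchor of protein kinase A (-0.88), Atf5, a stress-response transcription factor (-0.88), and Pmepa1, a damper of TGF-beta signalling (-0.87). Bambi had means of 8.46, 9.17, 11.6 and 18.3 CPM from chow novirus to HFD Renin, and Pmepa1 21, 20.4, 23.8 and 33.6. On deviations from the group means, which leave the group pattern out, the 5 highest were Atg9a (r = 0.84), a membrane protein of autophagy, Fgf13 (0.82), a partner of sodium channels, Tollip (0.79), an adaptor in Toll-like receptor signalling, Slc2a4 (0.79), the insulin-regulated glucose transporter, and Pnpt1 (0.79), a mitochondrial exoribonuclease. Of these, Slc2a4 and Fgf13 also had r over all libraries of 0.83 and 0.84, and Slc2a4 was highest in chow novirus, at a mean of 364 CPM.

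**Figure D4:**
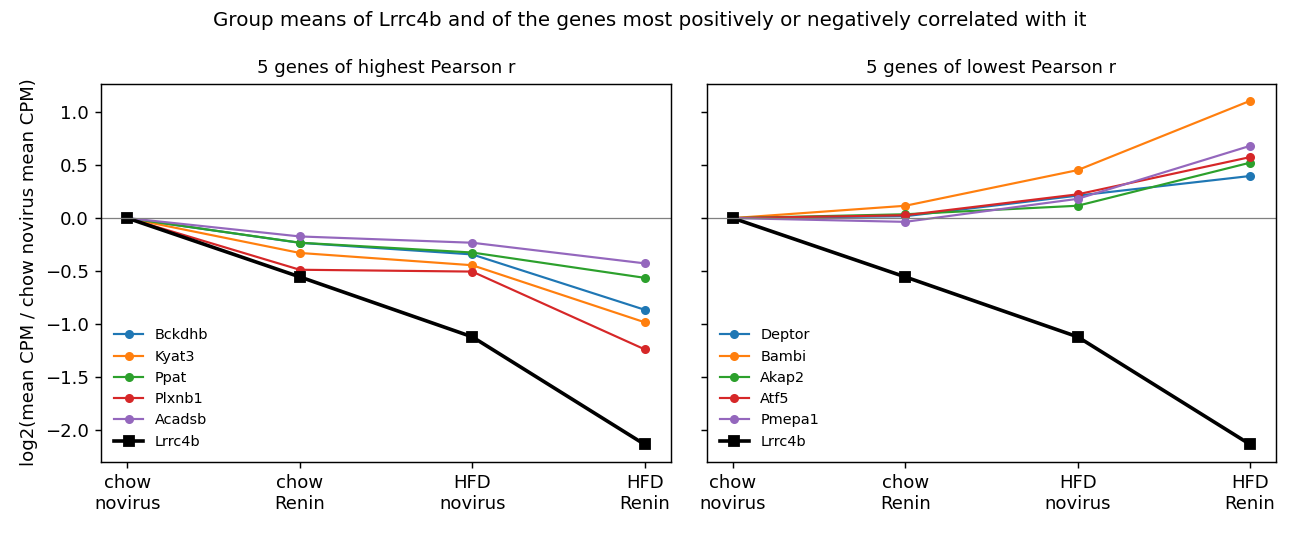
Log2 ratio of each group's mean CPM to the chow novirus mean, for Lrrc4b (black squares) and the 5 genes of highest (left) and lowest (right) Pearson r with it over 21 libraries, with 1 line per gene. Lrrc4b spans the widest range, its 5 most positively correlated genes step down in the same order, and its 5 most negatively correlated genes are highest in HFD Renin.

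Genes near Lrrc4b on chromosome 7 were set beside it. Within 200 kb of its ends the annotation holds 41 other genes, 13 of which passed the filter. For HFD Renin against chow novirus 0 of the 13 were called by edgeR and 0 by DESeq2, with 5 at an unadjusted p under 0.05, where 8.29% of all 15216 genes were called and 3643 were at an unadjusted p under 0.05. Up to 2 were called when 1 library was left out, 1 each without HFD Renin replicates 3 and 4 and 2 without chow novirus replicate 3. The nearest tested gene on each side was Josd2, a deubiquitinase gene 4629 bases downstream, and Syt3, a synaptotagmin gene 28831 bases upstream, both on the same strand. Josd2 averaged 52.3, 44.3, 52.4 and 49.3 CPM in chow novirus, chow Renin, HFD novirus and HFD Renin, and its log2 fold change was -0.08 (SE 0.09, adjusted p = 0.608) for HFD Renin against chow novirus. Syt3 averaged 2.66, 2.79, 2.59 and 1.98 CPM, with -0.43 (SE 0.26, adjusted p = 0.329).

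The neighbours described here as passing a test were called in comparisons that include renin hearts. Shank1, a scaffold gene of excitatory synapses 68446 bases upstream, averaged 7.96 CPM ± 0.253 (n = 4) in chow novirus and 19.8 ± 3.27 (n = 6) in chow Renin (log2 1.31, SE 0.12, adjusted p = 3.67e-08), in the hearts with raised neuron markers. The gene 2410002F23Rik, 176699 bases upstream, was lower in HFD Renin than in chow Renin (-0.31, SE 0.09, adjusted p = 0.0169, and 0.063 without HFD Renin replicate 5). In that last comparison 3 of 13 neighbours were lower and 0 higher, Shank1 included, a share near the 22.6% of all genes called, and the count was 5 without chow Renin replicate 3 and 2 without HFD Renin replicate 5.

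**Figure D5:**
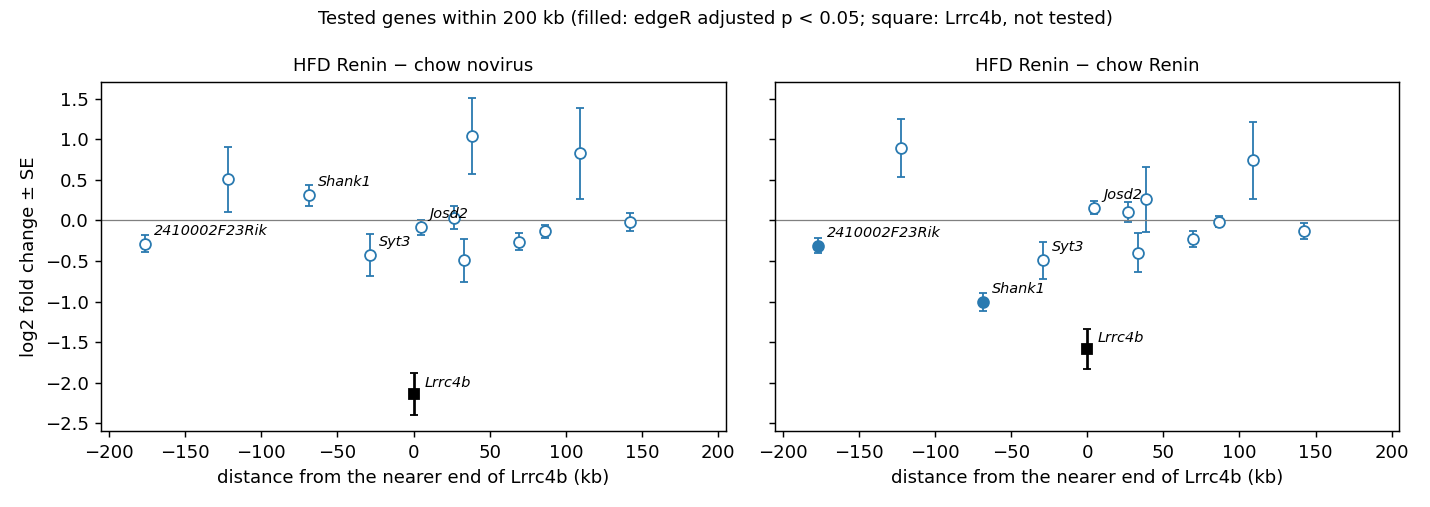
Log2 fold change ± SE of 12 of the 13 tested genes within 200 kb, by distance from the nearer end of Lrrc4b (negative values upstream), for HFD Renin against chow novirus (left) and against chow Renin (right), with filled points where the edgeR adjusted p is under 0.05. Lrrc4b, at -2.14 and -1.58, lies below all 12 in both panels, and the nearest gene, Josd2, lies close to 0.

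The make-up of Lrrc4b by transcript did not differ detectably between groups. Lrrc4b-201 held 96.7% ± 3.79 (SD, n = 4) of the gene's TPM in chow novirus, 91.4% ± 9.60 (n = 6) in chow Renin, 94.6% ± 8.82 (n = 6) in HFD novirus and 97.1% ± 6.46 (n = 5) in HFD Renin. In the 5 two-sided exact permutation tests the adjusted p ran from 0.917 to 0.921. The mean TPM of Lrrc4b-201 alone stepped down over the groups as the gene did, from 6.55 to 4.77, 2.76 and 1.51. Lrrc4b-202, with the upstream start, had 37.3 estimated reads in all over the 6 chow Renin libraries and 3.22 over the 5 HFD Renin libraries, too few to set its level between groups.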

How the data were processed

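Heart RNA was sequenced in 21 libraries. The labels name 1 mouse heart per library, and nothing states which hearts shared a batch. The deposited tables per library list, per the file headers, transcript length, TPM and the estimated count of reads (NumReads) for each transcript, as estimated counts made before deposit. The submitters' processing notes name Salmon 1.10.2, DESeq2 1.40.2 and the builds GRCm38 and mm10, with no role given. The authors' deposited gene matrix holds a signal on a linear scale whose normalization is not given in the sources used here, and log2 fold changes. Lrrc4b, the gene lists and the comparisons were chosen with earlier results of these data known.

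Estimated counts and TPM were summed to genes by the GENCODE M21 annotation (GRCm38), and the counts, which need not be whole, were rounded to whole numbers. Transcripts matched the annotation for 98.0% of those listed. edgeR 4.0.16 in R 4.3.3 (TMM, filterByExpr, estimateDisp, robust glmQLFit and quasi-likelihood F tests) was fitted with 1 term per group over all 21 libraries, with Benjamini-Hochberg adjustment over 15216 genes and a threshold of 0.05. The script was tested on simulated data. Log2 CPM for correlations used a prior count of 2. Permutation tests of relations used 100000 resamples. Alternatives were DESeq2 1.42.0, upper-quartile factors, no filter on low counts, a replicate block, a clock score covariate, TPM with a pseudocount of 0.1, the matrix signal with a pseudocount of 1, a prior count of 0.5, shares of estimated reads, each library left out, and, added after seeing the data, a central neuron score covariate.

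Genes were named by a rule: Lrrc4b and its transcripts, all members of the NGL family and partner lists, up to 4 called members of each other list by smallest p, called neighbours and the nearest tested gene on either side, and the 5 genes of highest and lowest r and of highest r of deviations. The few named outside it are marked in the text, and a few genes that it or a list holds are not reported here, though counts include them. All marker lists were summed per library as CPM of the library total. Those not described with the results had these ranges over groups of medians: endothelial 702 to 797, mural 874 to 941, macrophage 86.1 to 108, adipocyte 0.350 to 0.797, mesothelial 7.97 to 17.8 and astrocyte 338 to 413 CPM.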

Additional observations from a re-analysis of the deposited data

Results flagged for a closer look

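Among 128 groups of 4 to 6 libraries examined, 4 held 1 library separated from the rest by most of the group's range, and chance alone marks about 1 in 20 groups. Lrrc4b-201 held 85.6% of the gene's TPM in HFD Renin replicate 2, where Lrrc4b-202 had 3.22 reads, and all of it in the other 4 hearts of that group. Ntng1 stood at 1.71 CPM in chow Renin replicate 2, against 0.447 to 0.831 in the others. Lingo1 stood at 3.69 CPM in chow novirus replicate 3, against 1.74 to 2.0. Arntl stood at 7.63 CPM in HFD Renin replicate 1, against 2.94 to 3.98.

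Of 50 genes named from the lists, the neighbours and the genes most like Lrrc4b, 19 were called by edgeR's interaction term: the difference between renin and control hearts was not the same on both diets (adjusted p from 1.33e-06 to 0.0198), where 10.4% of all genes were called. Most of the genes were named for their small p in the 5 comparisons or for their likeness to Lrrc4b, so the count is a description. The value given is the log2 renin difference under HFD less the same difference under chow. In the NGL family and partners it was -2.30 for Lrrc4, -1.55 for Lrrc4c and -1.06 for Ptprd. Among scaffolds and liprins it was -1.40 for Dlg4, -1.62 for Dlg2, -0.80 for Dlg3, -2.09 for Ppfia2 and -2.22 for Ppfia3. Among the other adhesion genes it was -2.89 for Lrrtm4, -3.11 for Slitrk3, -2.89 for Lrrtm1, -1.71 for Lingo1, -2.46 for Cadm2, -2.46 for Clstn3, -1.62 for Cadm3, -0.89 for Cadm4 and -0.47 for Clstn1. It was -1.21 for the neighbour Shank1 and 0.37 for Akap2, one of the genes most opposed to Lrrc4b. All 19 had a positive renin difference on chow, in the 6 hearts whose central neuron markers summed to 294 to 474 CPM.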

How the results depend on the processing

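The Lrrc4b values, which carry no test, kept their negative sign under every alternative run for the 5 comparisons. For HFD Renin against chow novirus they ran from -1.69 (the deposited matrix signal with a pseudocount of 1) to -2.33, with -1.72 under the clock score covariate. With the central neuron score as covariate the values were -1.86 for chow Renin against chow novirus, -0.47 for HFD Renin against chow Renin and 0.93 for the interaction, the only Lrrc4b sign that turned. This covariate took the synaptic calls of those 2 comparisons, and the neighbour calls of both, to 0, where 41 and 42 of all genes were called. It gave 1 neighbour call among 13 for HFD Renin against chow novirus, where 10.6% of all genes were called with it. The clock score covariate took the synaptic calls to 0 for HFD Renin against chow novirus and against HFD novirus, and the neighbour calls of the latter to 0, in fits that called 0 and 15 of all genes. DESeq2 gave 2 neighbour calls for the latter. The central neuron score separated the chow Renin hearts from all others. The clock score separated both the HFD Renin and the chow Renin hearts from the chow novirus hearts. The cause of each change was not tested.

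With the replicate block, Lrrc4b was -0.39, -1.02, -2.04, -1.02 and -1.65 in the 5 comparisons and the interaction -0.63. Neighbour calls were 3 for chow Renin against chow novirus, 2 for HFD Renin against chow novirus and 2 for HFD Renin against HFD novirus, where 14.8%, 8.71% and 10.4% of all genes were called with the block. The correlation of deviations over 28 pairs with the same number ran from -0.23 to 0.42 with a median of 0.08. Over 136 other pairs its median was -0.025. So small a difference cannot decide whether the numbers pair the samples.

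With single libraries left out, the Lrrc4b value for HFD Renin against chow novirus ran from -2.32 to -2.0. Synaptic calls ran from 3 to 8 for HFD Renin against chow novirus and from 5 to 15 for HFD Renin against HFD novirus. Neighbour calls ran from 1 to 2 for chow Renin against chow novirus, from 0 to 2 for HFD Renin against chow novirus, from 1 to 2 for HFD Renin against HFD novirus and from 2 to 5 for HFD Renin against chow Renin. The cardiomyocyte relation ran from r = 0.38 to 0.71.

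The single genes named here whose called direction turned did so under the central neuron score covariate, where none passed the test. For chow Renin against chow novirus these were Lrrc4c (-0.52), Ntng1 (-0.90), Ptprd (-0.26), Dlg2 (-0.19), Lingo1 (-0.65), Clstn3 (-0.30) and Cadm3 (-0.31). For HFD Renin against chow Renin they were Lrrc4c (0.067), Ntng1 (0.72), Ptprf (0.054), Dlg2 (0.12), Slitrk3 (0.045), Lingo1 (0.35), Clstn3 (0.22), Clstn1 (0.15), Cadm3 (0.14), Hlf (0.62) and Per1 (0.027). For the interaction they were Lrrc4c (0.32), Ptprd (0.0198), Dlg2 (0.30), Lingo1 (0.74), Clstn3 (0.35), Cadm3 (0.36), Cadm4 (0.018) and Clstn1 (0.33). Depth limits Ntng1, Lrrtm1, Lrrtm4 and Slitrk3 most, with under 10 reads per chow novirus library.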

Other observations

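Beyond Lrrc4b, the 53 genes that shared its order of group means with at least a 2-fold span from chow novirus to HFD Renin included genes of several kinds. They were picked by their group means, so their values are a description, and those named here were chosen after their values were seen. Nr4a1, an immediate early nuclear receptor, was the most abundant of the 10 with the widest span next to Lrrc4b and had means of 92.3, 48.5, 34.9 and 30.7 CPM from chow novirus to HFD Renin. Sbk3, a muscle kinase gene, had means of 17.8, 13.1, 11.3 and 5.84 CPM. Genes better known from liver stood at low levels, with Gnmt, a methyltransferase, going from 2.33 to 0.631 CPM, and Cyp2e1, a cytochrome P450, from 4.44 to 1.39 CPM.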
